A study of Caenorhabditis elegans with 6 samples.

Results

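The 134 genes described here were those in which touch receptor cells carrying a huntingtin fragment with 19 glutamines stood apart from both of the other cell types of the study. They were chosen by their measured log ratios, from 7276 named genes open to the choice among 7477 named genes in all, and they fell into 34 genes low in 19Q cells and 100 genes high in 19Q cells. *C. elegans* touch receptor cells were compared on two-colour arrays in 3 groups. 128Q cells expressed an N-terminal huntingtin (HTT) fragment with 128 glutamines fused to GFP, 19Q cells expressed the same kind of fusion with 19 glutamines, and GFP only cells expressed GFP alone. The *mec-3* promoter drove expression in all 3 and the cells were sorted for GFP from primary cultures of embryonic cells. The promoter is active in the touch receptor cells but is not exclusive to them, so that a sorted sample is defined by promoter activity. 3 arrays compared 128Q cells with 19Q cells and 3 arrays compared 19Q cells with GFP only cells. No array compared 128Q cells with GFP only cells.

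The values were the log ratios that the authors deposited, here called deposited units, since no source used here gives the base of the logarithm and no fold can be stated. A positive value means more RNA in the cells named first. A gene was taken as low in 19Q cells where all 3 arrays of 128Q over 19Q reached 0.5 or more and 19Q over GFP was at -0.5 or less on replicates 1 and 2, and as high in 19Q cells where every one of these signs was turned. Families with symbols beginning nlp-, npr-, nssp-, nspg-, dbd-, idpp-, pugs-, pals- or cest- were left out. RNA of 19Q cells enters both ratios with opposite sign, so any error in a 19Q level moves them in opposite directions, and the rule also selects for such errors. No source used here says whether the same 19Q RNA went onto both kinds of array. Replicate 3 of 19Q over GFP took no part in the choice.

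Huntingtin carries a run of glutamines near its N-terminus that is lengthened in Huntington's disease. A fragment with a tract of normal length serves as the usual control for one with a lengthened tract, and GFP alone serves as the control for expressing a fragment at all. Touch receptor cells are the mechanosensory neurons with which the animal feels light touch along the body, and *mec-3* encodes the homeodomain factor that specifies their fate. Animals with the lengthened fragment in these cells respond poorly to light touch. In a series of cells without a fragment, with a normal fragment and with a lengthened one, the genes below are those in which the middle condition was the extreme one.

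The 3 arrays of 128Q over 19Q correlated with each other at 0.54 to 0.68 across genes and unnamed probes, which are not independent replicates. Replicates 1 and 2 of 19Q over GFP correlated at 0.74, whereas replicate 3 correlated at 0.11 with replicate 1 and at 0.01 with replicate 2. Without 244 low probes spaced evenly over the table, none of them a member, these 3 values were 0.53, 0.21 and 0.04, and those of 128Q over 19Q were 0.68 to 0.76. The array of replicate 3 was also less even within itself. Over the 23 named genes with 10 probes each, the median SD over the probes of a gene was 0.42 on replicate 3 of 19Q over GFP, against 0.15 on replicate 1, 0.14 on replicate 2, and 0.06 to 0.13 on the arrays of 128Q over 19Q. None of the 37 marker genes of 9 cell type lists, the markers of touch receptor neurons included, had a named probe, so the identity of the sorted cells could not be read from the named probes used here. The study's own list from these arrays does hold markers. It gives the touch receptor genes *mec-7*, *mec-12*, *mec-17* and *mec-18* as lower in 128Q than in 19Q cells. Markers of other cell types, among them *pha-4*, *myo-2*, *unc-25*, *flp-1* and *elt-2*, are also given there as lower. Whether the make-up of the sorted cells differed was not tested. In bulk RNA, fewer cells of a type and less RNA per cell cannot be told apart.

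Among all named genes open to the choice, 8.02% were at 0.5 or more on all 3 arrays of 128Q over 19Q and 9.05% were at -0.5 or less on all 3. On replicates 1 and 2 of 19Q over GFP, 6.12% were at -0.5 or less on both arrays and 10.8% were at 0.5 or more on both. The genes low in 19Q cells made up 0.467% of the named genes and the genes high in 19Q cells 1.37%.

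**Figure D1:**
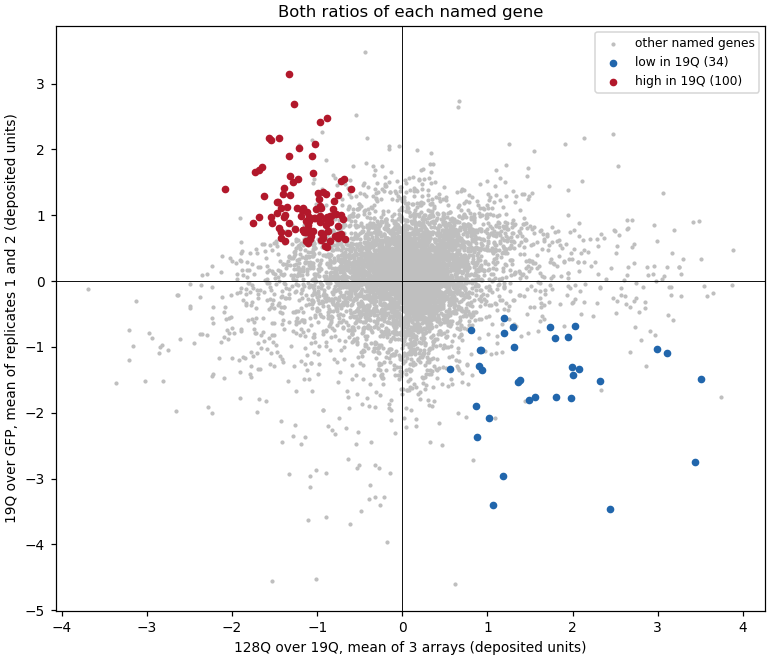
Each point is a named gene, with its mean log ratio of 128Q over 19Q on the horizontal axis and its mean over replicates 1 and 2 of 19Q over GFP on the vertical axis, both in deposited units. The 34 genes low in 19Q cells lie at the lower right and the 100 genes high in 19Q cells at the upper left, as the rule requires.

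The 34 genes low in 19Q cells were led by M03B6.4 and C15C7.4. Their median was 1.19, 1.33 and 1.64 on replicates 1, 2 and 3 of 128Q over 19Q, against 0.12, 0.01 and 0.05 over all named genes. On replicates 1 and 2 of 19Q over GFP their median was -1.10 and -1.39, against 0.09 and 0.14 over all named genes. These medians follow from the choice and are given as a description. In 9 of the 34 genes the weakest of the 5 values that chose them was 1 or more in size, and in M03B6.4 it was over 2.

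M03B6.4 was at 3.51, 3.45 and 3.37 on the 3 arrays of 128Q over 19Q and at -2.64, -2.86 and -0.76 on those of 19Q over GFP. The 3 arrays of 128Q over 19Q lay close together, and 19Q cells were below GFP only cells on every array, least so on replicate 3. C15C7.4 was at 2.36, 2.97 and 1.99 on 128Q over 19Q and at -3.87, -3.06 and 0.56 on 19Q over GFP. Its replicate 3 lay on the other side of 0, where the first pair of arrays gave some of the lowest values of any member. F02C9.1 behaved in the same way, with 4.22, 3.71 and 2.61 on 128Q over 19Q and -1.56, -1.42 and 0.80 on 19Q over GFP. ZK892.5 was at 2.34, 1.34 and 2.54 on 128Q over 19Q and at -1.23, -1.43 and 0.85 on 19Q over GFP.

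The next members kept their sign on replicate 3. F15G9.6 was at 1.09, 3.51 and 2.36 on 128Q over 19Q and at -1.28, -1.75 and -0.63 on 19Q over GFP. T04B8.1 was at 2.30, 1.05 and 2.08 on 128Q over 19Q and at -2.37, -1.15 and -0.86 on 19Q over GFP. C54E4.1, with 1.54, 2.68 and 1.74 on 128Q over 19Q, was at -2.53, -1.02 and -1.47 on 19Q over GFP. Of these 3 genes, the arrays of a comparison differed most in F15G9.6, between replicates 1 and 2 of 128Q over 19Q. ZC190.5 was at 1.22, 1.01 and 2.24 on 128Q over 19Q and at -1.84, -1.77 and -0.78 on 19Q over GFP. R07B7.10, which the study's supplementary annotation places with mitochondrial genes, was at 1.00, 2.90 and 2.12 on 128Q over 19Q and at -1.16, -1.70 and -1.04 on 19Q over GFP. Both lay below 0 on every array of 19Q over GFP. F28A10.5 was at 1.40, 1.31 and 1.42 on 128Q over 19Q and at -0.92, -2.11 and -2.37 on 19Q over GFP, and among the 12 leading genes low in 19Q cells it alone had its lowest value on replicate 3.

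5 of the 34 genes carry a locus name, 14.7%, against 12.7% of all named genes open to the choice. *icpp-55* (R119.2) belongs to a family of peptidases that trim mitochondrial proteins after import. It was at 4.05, 3.24 and 2.05 on 128Q over 19Q and at -0.92, -1.27 and -0.04 on 19Q over GFP, so that 128Q over 19Q was by far the larger ratio. *ugt-66* (C23G10.6) encodes a UDP-glucuronosyltransferase, one of the enzymes that attach sugars to small molecules to detoxify them. Its values were 1.51, 2.68 and 1.78 on 128Q over 19Q and -0.88, -1.73 and 1.24 on 19Q over GFP, with replicate 3 on the opposite side. *cdk-11.1* (B0495.2), a cyclin-dependent kinase gene, was at 1.21, 0.93 and 1.43 on 128Q over 19Q and at -0.53, -0.59 and -0.09 on 19Q over GFP, just past the threshold on the arrays that chose it. *spe-55* (C09B9.4), named for a defect in sperm formation, was at 0.78, 1.82 and 2.07 on 128Q over 19Q and at -1.34, -2.19 and -0.33 on 19Q over GFP. *spig-1* (F20A1.1) was at 1.08, 1.19 and 0.91 on 128Q over 19Q and at -3.12, -3.67 and 0.66 on 19Q over GFP, which made it the gene of this direction with the lowest replicate 2. 32 of the 34 genes are protein-coding, and F56B3.3 and Y46G5A.6 are pseudogenes.

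**Figure D2:**
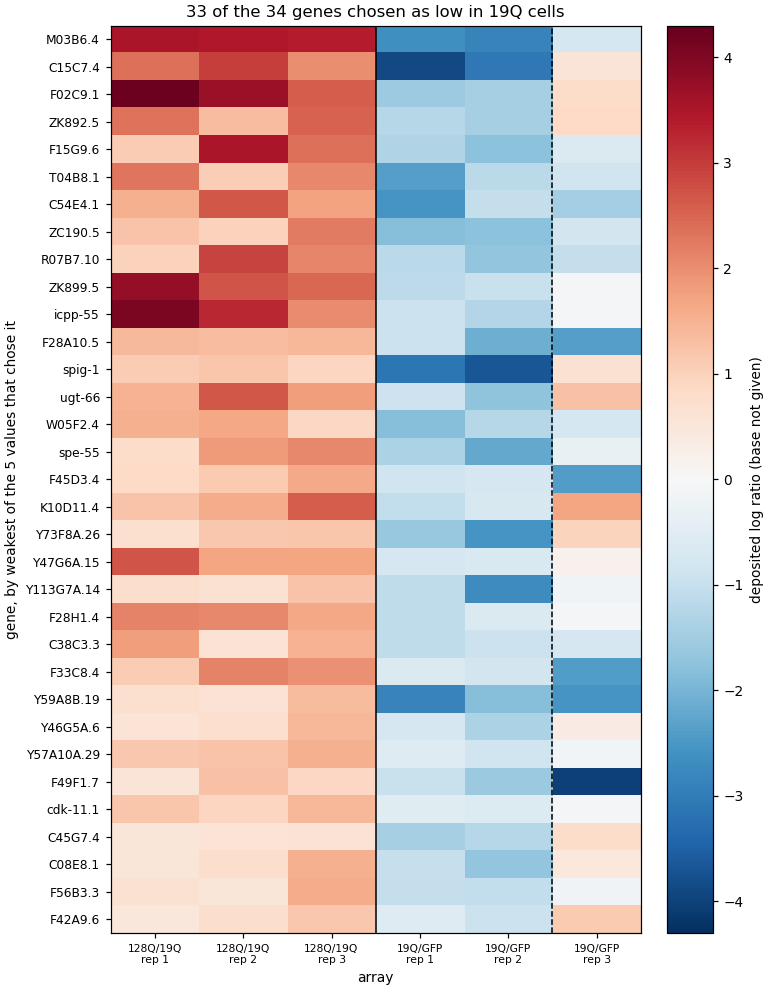
Rows are 33 of the 34 genes low in 19Q cells, ordered by the weakest of the 5 values that chose them, and columns are the 3 arrays of 128Q over 19Q and then the 3 of 19Q over GFP. Colour is the log ratio in deposited units, and replicate 3 of 19Q over GFP, right of the dashed line, runs from -4.03 to 1.71 where the other columns have the sign of the rule.

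Among the genes low in 19Q cells, F28H1.4 is matched in the study's supplementary annotation to human PLLP, plasmolipin, a membrane protein of myelin in mammals. It was at 2.13, 2.06 and 1.65 on 128Q over 19Q and at -1.09, -0.63 and -0.06 on 19Q over GFP, so 128Q over 19Q was the larger ratio. Over the 34 genes, the mean of 128Q over 19Q was the larger of both ratios in 19 and the mean of replicates 1 and 2 of 19Q over GFP in 15, with median sizes of 1.43 and 1.34. The SD over all probes was 0.78 and 0.81 on replicates 2 and 3 of 128Q over 19Q and 1 on the other arrays. No source used here says whether deposited units form 1 scale across arrays, so these sizes are compared in deposited units only.

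The 100 genes high in 19Q cells were more numerous and their ratios were smaller. Their median was -1.01, -1.24 and -1.0 on replicates 1, 2 and 3 of 128Q over 19Q, and 0.94 and 1.01 for the first 2 replicates of 19Q over GFP. The weakest of the 5 values was 1 or more in size in 10 of the 100 genes and was 2 or more in none. In the genes low in 19Q cells, the median SD over 3 arrays was 0.55 for 128Q over 19Q and 0.9 for 19Q over GFP. It was smaller in the 100 genes high in 19Q cells, at 0.32 and 0.64, against 0.26 and 0.47 over all named genes.

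F53A9.8 had the largest weakest value of this direction, with -1.66, -2.07 and -1.32 on 128Q over 19Q and 1.78, 1.60 and 0.36 on 19Q over GFP. Y47H10A.5 was at -1.21, -1.16 and -1.65 on 128Q over 19Q and at 4.26, 2.05 and -0.15 on 19Q over GFP, the highest value of any of the 100 genes on replicate 1. Its 3 arrays of 19Q over GFP differed by more than its whole 128Q over 19Q ratio. K11H12.4 was at -1.30, -2.33 and -1.58 on 128Q over 19Q and at 2.16, 1.14 and 1.17 on 19Q over GFP, and lay above 1 on all 3 arrays of 19Q over GFP. T05F1.9, with -1.90, -1.26 and -1.06 on 128Q over 19Q, was at 1.26, 1.39 and -0.14 on 19Q over GFP. W02G9.4 was at -1.84, -1.53 and -1.05 on 128Q over 19Q and at 1.07, 1.34 and -0.35 on 19Q over GFP. In both, replicate 3 lay slightly below 0.

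F47B8.2 was at -1.61, -1.29 and -1.49 on 128Q over 19Q and at 1.04, 1.37 and 1.43 on 19Q over GFP, the most even of the leading genes over all 6 arrays. F35E8.1 was at -1.35, -1.89 and -1.03 on 128Q over 19Q and at 1.12, 1.10 and -1.79 on 19Q over GFP, so that replicate 3 was farther below 0 than replicates 1 and 2 were above it. F16H6.10 was at -1.02, -1.58 and -1.35 on 128Q over 19Q and at 2.00, 1.20 and -0.36 on 19Q over GFP. These 3 genes show the range of what replicate 3 gave among genes that the other arrays placed close together. F35E12.9 was at -1.0, -1.88 and -1.10 on 128Q over 19Q and at 2.30, 1.49 and 0.79 on 19Q over GFP. C50F4.1 was at -1.08, -0.97 and -1.02 on 128Q over 19Q and at 3.11, 1.06 and -0.59 on 19Q over GFP, and F54H5.5 was at -1.22, -1.27 and -1.22 on 128Q over 19Q and at 0.96, 1.25 and 0.04 on 19Q over GFP. Both had nearly the same value on the 3 arrays of 128Q over 19Q.

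13 of the 100 genes carry a locus name. *clc-19* (T24C4.4), of the claudin-like family of membrane proteins, was at -1.65, -3.01 and -1.60 on 128Q over 19Q, the lowest replicate 2 of the 100 genes, and at 2.15, 0.64 and 1.03 on 19Q over GFP. *glr-9* (W02A2.5), of the ionotropic glutamate receptor family, through which neurons receive fast signals, was at -1.60, -2.61 and -1.05 on 128Q over 19Q and at 1.05, 0.73 and -0.39 on 19Q over GFP. *ift-43* (C25H3.12) encodes a part of the intraflagellar transport machinery that builds cilia. Its values were -1.24, -0.95 and -1.18 on 128Q over 19Q and 0.72, 1.39 and 0.53 on 19Q over GFP, past 0.5 on every array. *asah-2* (F27E5.1), an acid ceramidase family gene of sphingolipid breakdown, was at -0.92, -1.62 and -1.64 on 128Q over 19Q and at 0.74, 1.21 and -0.37 on 19Q over GFP. *hrg-11.4* (ZK1193.2), named as a heme-responsive gene, was at -1.39, -1.37 and -1.41 on 128Q over 19Q and at 1.81, 1.02 and -0.26 on 19Q over GFP. *fbxc-58* (C10C5.2), of the F-box family that picks proteins for ubiquitylation, was at -1.66, -0.71 and -1.59 on 128Q over 19Q and at 1.03, 1.58 and 0.71 on 19Q over GFP. *wdr-54* (F39H12.2), a WD-repeat gene, was at -1.0, -0.57 and -1.31 on 128Q over 19Q and at 0.74, 0.51 and 0.71 on 19Q over GFP, again past 0.5 throughout. Of the remaining locus-named genes, *srsy-2* was at 0.85, 0.98 and 0.72 on 19Q over GFP and *lro-1* (W05H9.1) at 3.14, 1.19 and -0.28, while *spi-2*, *sqr-1*, *pyt-1* and *phat-8* lay between 0.51 and 1.63 on replicates 1 and 2 and between -1.47 and 0.38 on replicate 3.

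**Figure D3:**
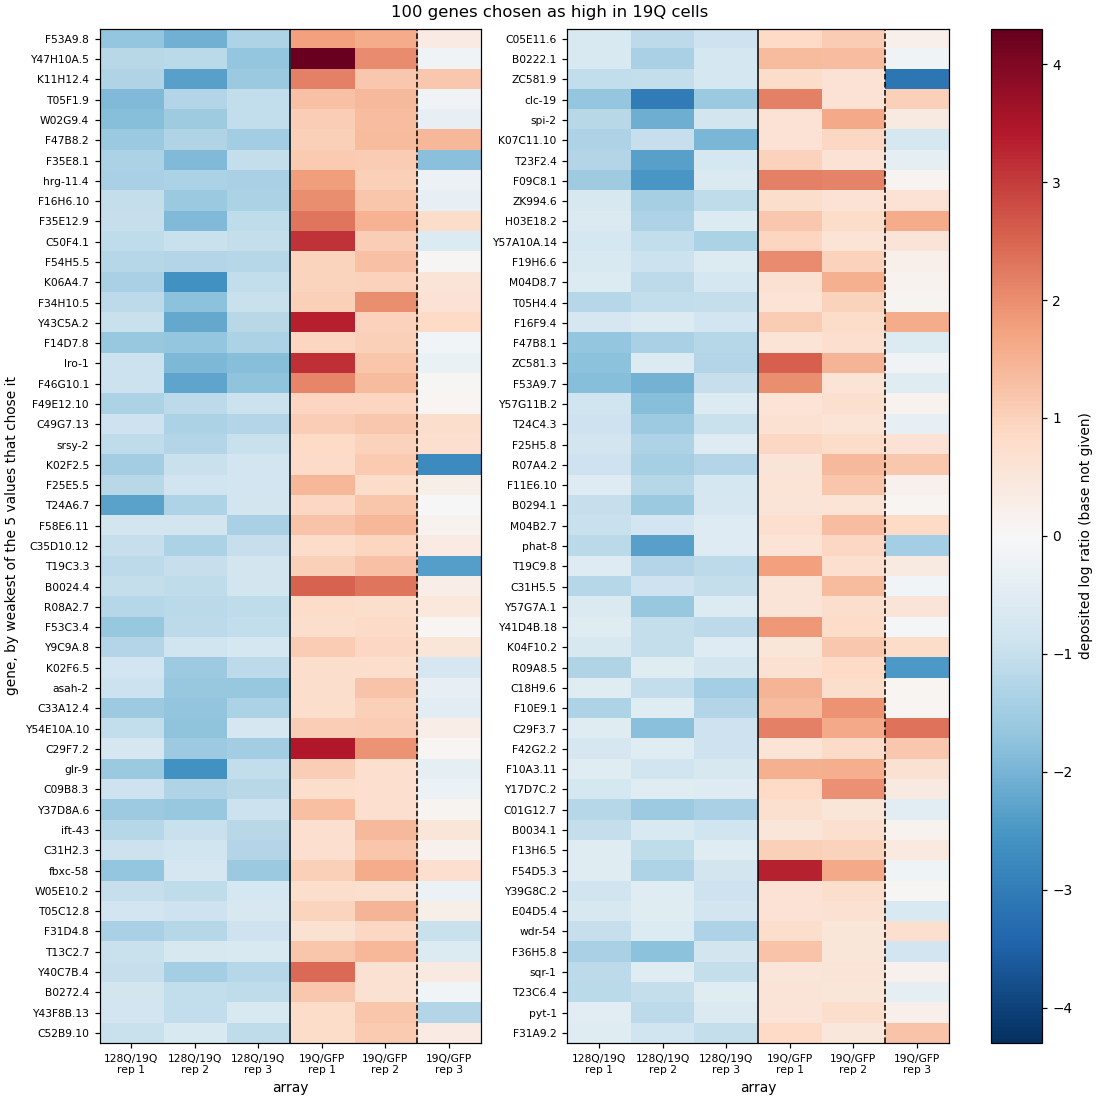
Rows are the 100 genes high in 19Q cells, ordered by the weakest of the 5 values that chose them and split over 2 panels, and columns are the 3 arrays of 128Q over 19Q and then the 3 of 19Q over GFP. Colour is the log ratio in deposited units, and replicate 3 of 19Q over GFP, right of the dashed line, runs from -3.10 to 2.34.

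3 of the genes high in 19Q cells have a human homolog in the study's supplementary annotation. That annotation covers genes the study called deregulated, so the count does not tell how many of the 100 genes have a homolog. T05H4.4, matched to a cytochrome-b5 reductase, an enzyme that passes electrons in lipid metabolism, was at -1.23, -1.05 and -1.01 on 128Q over 19Q and at 0.58, 0.98 and 0.11 on 19Q over GFP. Y37D8A.6, matched to C16orf5, was at -1.57, -1.62 and -0.93 on 128Q over 19Q and at 1.28, 0.72 and 0.12 on 19Q over GFP. F49E12.10, matched to C5orf4, was at -1.35, -1.12 and -0.92 on 128Q over 19Q and at 0.92, 0.91 and 0.09 on 19Q over GFP. All 3 were close to 0 on replicate 3. 98 of the 100 genes are protein-coding, F31A9.2 is a long non-coding RNA and Y41D4B.18 a pseudogene.

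C31H2.3 and F09C8.1 were each measured by 10 probes, and every other member by 1. Over its probes, F09C8.1 ran from 1.86 to 2.5 on replicate 1 and from 1.89 to 2.48 on replicate 2 of 19Q over GFP, and from -0.53 to 1.24 on replicate 3. Its SD over probes was 0.56 on replicate 3, against 0.20 and 0.19 on replicates 1 and 2, while its mean was 0.13, against 2.16 and 2.13. C31H2.3 had an SD of 0.38 over its probes on replicate 3, with a mean of 0.19, against 0.16 and 0.15 on replicates 1 and 2, with means of 0.72 and 1.19. For the 132 members with 1 probe, the error of a single spot cannot be seen. In C31H2.3, 1 of the 10 probes was at 0.47 on replicate 1 and missed the rule on its own.

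Some of the genes high in 19Q cells lie next to each other. F14D7.8, F47B8.1 and F47B8.2 follow one another among the protein-coding genes of the RefSeq annotation, and F53A9.7 and F53A9.8 are neighbours. F47B8.1 was at -1.67, -1.39 and -1.22 on 128Q over 19Q and at 0.58, 0.72 and -0.58 on 19Q over GFP, and F14D7.8 was at -1.62, -1.66 and -1.36 on 128Q over 19Q and at 0.94, 1.01 and -0.11 on 19Q over GFP. F53A9.7 was at -1.83, -2.05 and -0.98 on 128Q over 19Q and at 2.01, 0.58 and -0.52 on 19Q over GFP. Counting each named neighbour of each of the 100 genes, 6 of 85 were themselves in the group, 7.06%, against 1.37% of all named genes. None of the 27 named neighbours of the genes low in 19Q cells was in that group. Probes of neighbouring genes that resemble each other can catch the same RNA, and this was not tested.

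**Figure D4:**
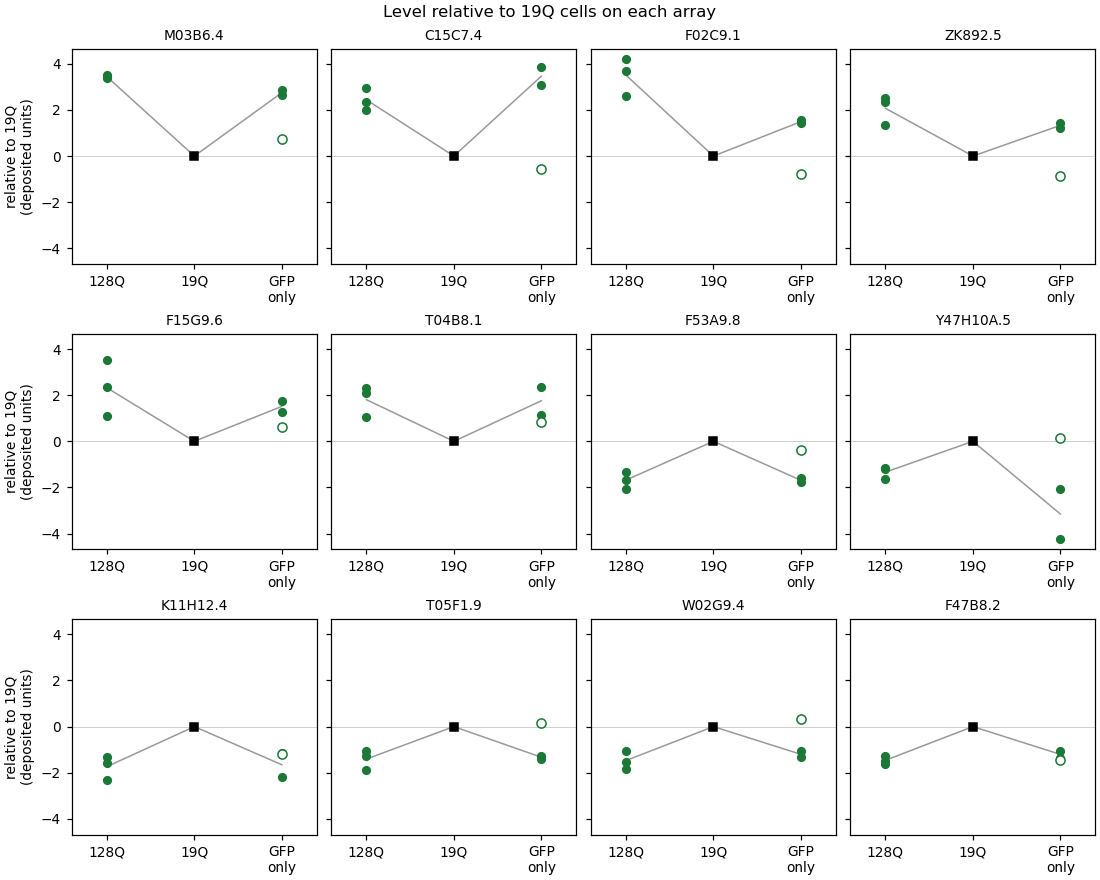
Each panel is a gene, 6 low and 6 high in 19Q cells, with the log ratio of 128Q cells and of GFP only cells over 19Q cells in deposited units, so that 19Q cells (square) stand at 0 by construction. Filled points are the arrays that chose the gene, the open point is replicate 3 of 19Q over GFP with its sign turned, and the grey line joins the means of the filled points. The open point lies beyond 0 on the far side in C15C7.4, F02C9.1, ZK892.5, Y47H10A.5, T05F1.9 and W02G9.4.

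Replicate 3 of 19Q over GFP, the array that took no part in the choice, gives a single value for each gene and allows no test. The genes low in 19Q cells had a median of -0.10 there, with a range from -4.03 to 1.71, against a median of 0.06 over all named genes. 21 of the 34 genes, 61.8%, were below 0, where 47.5% of all named genes were. 13 of the 34, 38.2%, were at -0.5 or less, against 25% of all named genes, and 10 of the 34, 29.4%, were at 0.5 or more, against 27.4%. The share past the threshold against the direction of the rule was thus close to the background.

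The genes high in 19Q cells had a median of 0.13 on that array, from -3.10 to 2.34. 61 of the 100 genes, 61.0%, were above 0, where 52.5% of all named genes were. 26 of the 100 were at 0.5 or more, close to the 27.4% of all named genes, and 16 of the 100 were at -0.5 or less, against 25%. Among the 10 genes whose weakest value was 1 or more in size, 4 were above 0, with a median of -0.15. Among the 9 such genes low in 19Q cells, 6 were below 0, with a median of -0.76.

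Genes that passed only the 19Q over GFP part of the rule gave comparable shares on replicate 3. Of 404 other named genes at -0.5 or less on replicates 1 and 2 of 19Q over GFP, 57.7% were below 0 on replicate 3 and 36.9% were at -0.5 or less. Of 668 other named genes at 0.5 or more on replicates 1 and 2, 64.7% were above 0 and 35.9% were at 0.5 or more. The members' shares were 61.8% and 38.2% in the genes low in 19Q cells, near those of the other genes, and 61.0% and 26 of 100 in the genes high in 19Q cells, the second below that of the other genes. The differences between these shares were not tested.

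**Figure D5:**
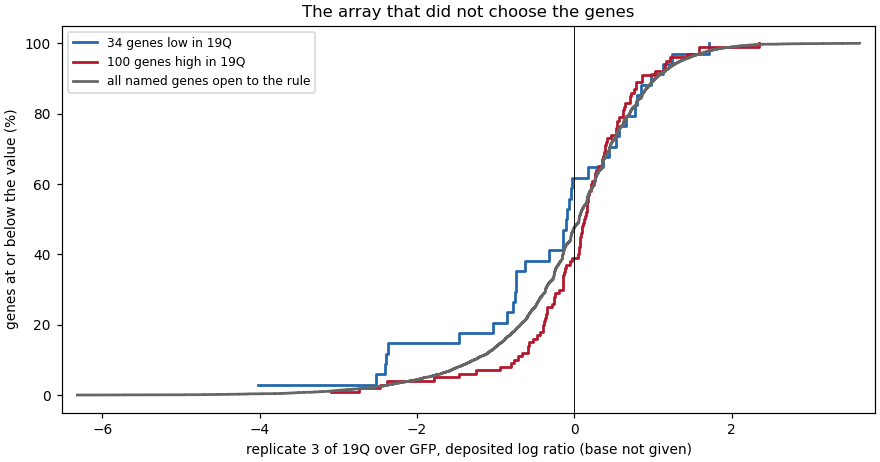
Cumulative share of genes, in percent, at or below each log ratio (deposited units) on replicate 3 of 19Q over GFP, for the 34 genes low in 19Q cells, the 100 genes high in 19Q cells and all named genes open to the choice. At 0 the curves stand at 61.8% for the genes low in 19Q cells and 47.5% for all named genes, and the curve of the genes high in 19Q cells lies below both there.

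Among the genes low in 19Q cells, the lowest values on this array were those of F49F1.7 at -4.03, Y59A8B.19 at -2.52, F33C8.4 at -2.41 and F45D3.4 at -2.39, none of which was among the 12 leading genes. Against the direction of the rule, K10D11.4 was at 1.71, *ugt-66* at 1.24, F42A9.6 at 1.13 and Y73F8A.26 at 0.97. Among the genes high in 19Q cells, C29F3.7 was at 2.34, with 2.15 and 1.64 on replicates 1 and 2, and was thus high on all 3 arrays of 19Q over GFP. F16F9.4 was at 1.59, H03E18.2 at 1.58 and F47B8.2 at 1.43. Against the rule, ZC581.9 was at -3.10, K02F2.5 at -2.74, R09A8.5 at -2.48 and T19C3.3 at -2.38.

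The level of 128Q cells relative to GFP only cells can be had only through 19Q cells, as the sum of both mean ratios, with an error that holds the spread of both. The sum takes the deposited units of both comparisons as 1 scale, which no source used here states. Over all 6 arrays its median was 0.35 in the genes low in 19Q cells, -0.34 in the genes high in 19Q cells and 0.11 over all named genes. Without replicate 3 of 19Q over GFP the medians were 0.14 and -0.07. The offset from 0 thus rested largely on that array, most of all in the genes high in 19Q cells. 16 of the 34 genes and 60 of the 100 genes lay within 0.5 of 0 over all 6 arrays, and 13 and 72 did so without replicate 3. In these genes 128Q cells and GFP only cells were close in the sum, with 19Q cells apart from both, and the sum of opposite ratios tends to 0 by the way the genes were chosen.

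Over all 6 arrays the sum was 0.5 or more in size in 18 of the 34 genes low in 19Q cells, 14 of them positive and 4 negative. It was so in 40 of the 100 genes high in 19Q cells, 6 positive and 34 negative. Without replicate 3 of 19Q over GFP, 14 of the 34 genes were at 0.5 or more and 7 at -0.5 or less. Of the 100 genes, 16 were then at 0.5 or more and 12 at -0.5 or less, so their lean to negative sums rested on that array. None of the members' sums over all 6 arrays passed limma's test across all features at an adjusted p under 0.01. Over all 6 arrays, F02C9.1 was at 2.78 ± 0.72 (SE), *icpp-55* 2.37 ± 0.57, ZK899.5 2.29 ± 0.46 and K10D11.4 1.78 ± 0.76, the highest of the genes low in 19Q cells. Without replicate 3 of 19Q over GFP the first 3 stood at 2.02, 2.02 and 1.96, and K10D11.4 at 0.92. ZK899.5 was at 3.79, 2.72 and 2.47 on 128Q over 19Q and at -1.12, -0.94 and -0.05 on 19Q over GFP. At the other end of the genes low in 19Q cells, Y59A8B.19 was at -1.54 ± 0.37, F49F1.7 at -1.30 ± 0.76 and *spig-1* at -0.98 ± 1.05. The SE was larger than the value for *spig-1*, in which replicate 3 opposed the other arrays. Without replicate 3, Y59A8B.19 stood at -1.49 and *spig-1* at -2.34, while F49F1.7 was at -0.39. Among the genes high in 19Q cells, the lowest sums over all 6 arrays were those of ZC581.9 with -1.49 ± 0.99, K02F2.5 with -1.37 ± 0.97, *phat-8* with -1.34 ± 0.72 and *glr-9* with -1.29 ± 0.53. The first 3 of these rested largely on replicate 3, since without it ZC581.9 was at -0.22, K02F2.5 at -0.13 and *phat-8* at -0.61, and *glr-9*, at -0.87, was then the lowest. The highest over all 6 arrays were those of C29F3.7 with 0.98 ± 0.40, B0024.4 with 0.74 ± 0.59, Y47H10A.5 with 0.72 ± 0.99 and F54D5.3 with 0.70 ± 0.82. Without replicate 3, C29F3.7 was at 0.83 and lay below B0024.4 at 1.45, Y47H10A.5 at 1.82 and F54D5.3 at 1.59.

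The fit over all features, limma's moderated test with p-values adjusted by Benjamini-Hochberg, was run for completeness, and since the rule used these arrays nothing is read from its counts of members. At an adjusted p under 0.01, 1.63% of 22033 features were higher in 128Q cells than in 19Q cells and 1.17% were lower. 6 of the 34 genes low in 19Q cells passed as higher, M03B6.4, F02C9.1, ZK899.5, *icpp-55*, Y47G6A.15 and F28H1.4, and 2 of the 100 genes high in 19Q cells passed as lower, F47B8.2 and R08A2.7. In place of these 8, 39 members passed when replicate 3 of 19Q over GFP was left out. The share of all features that passed in that fit is not given here. The spread of that array enters the error of each gene in the shared fit, and whether this accounts for the difference was not tested. For 19Q against GFP only cells, 0.0% of 21897 features passed in either direction, and 4825 had an unadjusted p under 0.05. For the sum of both ratios, 128Q against GFP only cells, 0.434% of 21642 features were higher and 0.236% lower, with no member among them. 5563 features, 25.7%, had an unadjusted p under 0.05 there, against which stood 9 of the 34 genes, 26.5%, and 7 of the 100. For the contrast of 19Q cells against the mean of the other groups, 0.0% of 21642 features passed in either direction, with 4812 at an unadjusted p under 0.05.

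Several members are on lists of the study whose directions come from these same arrays, so the lists are no independent evidence of direction. For the putative DAF-16 targets below, the study took target status from earlier published work. Their overlap with the genes changed in 128Q cells came from these arrays. Of the 16 named genes on the list lower in 19Q cells than in GFP only cells, 4 were low in 19Q cells here, among them C15C7.4, *spig-1* and M03B6.4. Of the 2 named genes on the list higher in 19Q cells, 1 was a member, Y47H10A.5. The lists of putative targets of DAF-16, the FOXO transcription factor of the worm, held 14 named genes on the list higher in 128Q cells, of which F45D3.4 was a member, and 15 on the list lower, of which *lro-1*, F35E12.9 and F36H5.8 were members. F45D3.4 was at 0.85, 1.11 and 1.64 on 128Q over 19Q and at -0.85, -0.72 and -2.39 on 19Q over GFP. F36H5.8 was at -1.40, -1.78 and -0.80 on 128Q over 19Q and at 1.24, 0.51 and -0.81 on 19Q over GFP. *lro-1* was at -0.93, -1.94 and -1.84 on 128Q over 19Q. In these 4 genes replicate 3 kept the sign of the rule in F45D3.4 and F35E12.9 and not in *lro-1* and F36H5.8.

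Past the threshold on all 6 arrays were 13 of the 34 genes and 26 of the 100, and since replicate 3 alone was not used in the choice these shares are those already given for it. The 13 included M03B6.4, F15G9.6, T04B8.1, C54E4.1, ZC190.5 and R07B7.10 of the genes described above. The 26 included K11H12.4, F47B8.2, F35E12.9, *clc-19*, *ift-43*, *fbxc-58*, *srsy-2* and *wdr-54*.

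The threshold of 0.5 divided genes with nearly the same values. Just inside it among the genes low in 19Q cells, the weakest value was 0.50 in F42A9.6 and F56B3.3 and 0.51 in C08E8.1, and just outside it was 0.48 in K09E4.1, 0.48 in F23B2.7 and 0.46 in W05H7.2. Among the genes high in 19Q cells it was 0.50 in F31A9.2, *pyt-1* and T23C6.4 just inside, and 0.497 in K11C4.2, 0.496 in Y110A2AL.2 and 0.493 in R02D5.3 just outside. These genes differ by far less than the replicates of a gene do.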

How the data were processed

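RNA of touch receptor cells sorted on GFP from 128Q, 19Q and GFP only cultures was amplified once and hybridised to Agilent two-colour arrays, in 3 experiments for each comparison, with dye swaps. The authors deposited 1 log ratio score per probe and array, centred at a mean of 0. How background was corrected, how arrays were normalized, the log base and whether dye swaps were merged were not stated in the sources used here. SDs were 1 on 4 arrays, and 0.78 and 0.81 on replicates 2 and 3 of 128Q over 19Q. Nothing on these arrays gives depth, and their number limits precision. Of 22562 probes, 7718 had 1 symbol and 14844 none; 7691 matched RefSeq, and probes of a symbol were averaged, giving 7477 named genes. Of 7276 genes open to the rule, 7132 had all 5 values. limma 3.58.1 in R 4.3.3 was fitted to all 22321 features (groups in 1 model, moderated errors, Benjamini-Hochberg) and tested on simulated data; Python 3.11.15 with pandas 2.3.3 applied the rule. The methods name independent experiments, while GEO's labels do not say which samples share a culture, so p-values measure the spread between these samples. The members and lists were chosen with earlier results of these data known. Genes named are the 12 with the largest weakest value per direction, those next to the threshold, those at either end of replicate 3 of 19Q over GFP and of 128Q over GFP, neighbours, list members and genes with an annotated protein class. The values of 1 gene low in 19Q cells are not reported here on their own. Alternatives covered the threshold, centring, scaling, probes, moderation, the replicate block and each array left out.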

Additional observations from a re-analysis of the deposited data

How the results depend on the processing

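With a threshold of 0.25, 0.75 or 1 in place of 0.5, 92, 16 and 9 genes were low in 19Q cells and 267, 31 and 10 were high, and with 0.5 required on all 6 arrays 13 and 26. Leaving out 1 of the 5 arrays gave 38 to 91 and 118 to 187, the most without replicate 1 of 19Q over GFP. Centring each array on its median kept 29 of the 34 and 75 of the 100 genes, and centring with scaling kept 30 and 85. The 8 members that passed for 128Q versus 19Q became 61 at an adjusted p under 0.05, 16 with named genes alone, and 0 to 39 with 1 array left out. The replicate block left 1. The deviations of same-numbered arrays correlated at 0.43, -0.13 and 0.34, and at -0.04, -0.00041 and 0.01 without the 244 low probes. Those probes were chosen by their values on some of these arrays, which itself changes the correlations. Whether the numbers pair the samples cannot be told from these values. Members that passed for 128Q versus GFP were 0, and 1 at an adjusted p under 0.05 (ZK899.5), and 0 to 1 with 1 array left out (*spig-1* without replicate 3 of 19Q over GFP). For 19Q apart they were 0, with 65 at an adjusted p under 0.05, 3 with named genes alone, and 0 to 1 with 1 array left out. The shares of all features that passed under these alternatives are not given here. The rule used these contrasts, so nothing is read from any of these counts of members. The median of the genes high in 19Q cells on replicate 3 was 0.13, and -0.15 in the 10 genes with a threshold of 1. The causes were not tested. Of 1340 values of single members under an alternative, 1323 moved by less than 1 SD and 17 by more. No mean of 128Q over 19Q changed sign. With an array left out this was fixed in advance, since the rule required all 3 arrays past 0.5 with the same sign. In 14 members the mean of 19Q over GFP changed sign. Without a run of low probes spaced evenly over the table, an alternative added once the data had been seen, 9 passed in place of 8.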

Other observations

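Of the 201 named genes of the families left out, 13 met the same rule, where 134 of the 7276 genes open to it did, 1.84%. The difference was not tested. Among the 2 low in 19Q cells, *pals-29* averaged 1.70 for 128Q over 19Q and -0.65 over the first 2 arrays of 19Q over GFP, and *dbd-7* averaged 1.47 and -0.98. Among the 11 high in 19Q cells, 4 were *nspg* genes, which averaged between -1.78 and -1.38 for 128Q over 19Q and between 1.45 and 2.34 over those first 2 arrays of 19Q over GFP. 3 were *nlp* genes, which belong to the neuropeptide-like precursors, and *nlp-43* was at 2.66 on replicate 3 of 19Q over GFP. Probes with no gene name met the rule about as often as named genes, with 0.465% of them low in 19Q cells and 1.44% high.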
